A study of Mus musculus with 6 samples.

Results

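The Hox genes are the homeobox genes of the Hoxa, Hoxb, Hoxc and Hoxd clusters. They were taken here as every gene on the arrays whose annotated symbol consists of Hox, a cluster letter from a to d and a paralog number. Of 18193 genes with a probe set that names 1 gene, 33 were Hox genes, read by 48 probe sets. The reference gene table holds 39 such genes, and the other 6 are not analysed here. The Hoxa cluster on chromosome 6 had 9 measured genes of 11, Hoxb on chromosome 11 had 9 of 10, Hoxc on chromosome 15 had 7 of 9 and Hoxd on chromosome 2 had 8 of 9. By paralog number, 7 were anterior (numbers 1 to 3), 12 central (4 to 8) and 14 posterior (9 to 13).

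The study compared mouse gonads of the inbred strain C57BL/6, bought from a breeder, in a search for genes that act when chromosomes segregate in the first meiotic division. Ovaries and testes were dissected at 15.5 days postcoitum (fetal), at day 1 after birth (neonatal) and at 10 weeks of age (adult), and total RNA of each was hybridized to 1 Affymetrix array. The 6 groups carried no treatment or engineered allele by the labels, and the sources used here do not give the number of animals behind each RNA. With 1 array per group no difference has a replicate check, so no p-value or standard error is given, and precision is limited by the number of arrays.

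Each array was scaled to a common trimmed mean. Signals under 75.3, the median of all scaled signals, were raised to that value, called the floor. A gene was called higher or lower when 2 arrays differed by 4-fold or more. Where 1 of the 2 sat at the floor, only a lower bound of the ratio is known, written as at least N-fold. Signals of different genes come from different probes and are not compared with each other.

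Median deposited signals lay between 64.1 and 82.5. Hybridization controls, RNAs added to each array in a fixed amount, were dimmest on adult testis (745) and neonatal ovary (1031), against 1462 to 1675 on the other 4 arrays. Scaling to these controls moved the median log2 ratio, taken over genes that exceeded the floor on both arrays, from 0.54 to -0.35 for adult ovary against adult testis, from -0.50 to 0.68 for adult against neonatal testis and from 0.04 to 0.46 for neonatal ovary against neonatal testis. Fold changes that involve adult testis are therefore relative to a centre that the scaling sets. The difference between probe sets of the same gene gave a technical SD, on the log2 scale, of 0.16 for fetal ovary against fetal testis, 0.22 to 0.32 for the comparisons among the other immature arrays and adult ovary, and 0.57 and 0.63 for those with adult testis. All 6 Leydig cell markers and 8 of 10 Sertoli cell markers were higher on both immature testis arrays than on both immature ovary arrays. Of all genes 10.7% had that order. All 10 spermatid markers were called higher in adult than in neonatal testis, against 10.7% of all genes.

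Hox genes encode transcription factors with a homeodomain, the fold that binds DNA. In each cluster they lie in the order in which they are switched on along the body axis, with low paralog numbers active toward the head and high numbers toward the tail, and genes with the same number in different clusters are close relatives. The gonad and the ducts beside it arise in the trunk, and Hoxa9, Hoxa10, Hoxa11 and Hoxa13 are known for patterning the female duct into oviduct, uterus, cervix and vagina. Hox proteins bind DNA together with cofactors of the Pbx and Meis families, Polycomb proteins hold the clusters silent, and retinoic acid activates genes at their anterior end.

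Promoter windows from RefSeq, on build GRCm38.p6, cover 250 bases before and 50 bases after a gene's start. Windows were found for 19 of the 33 Hox genes, 21 windows in all. Hox windows held a median of 15 CG dinucleotides against 7 over 32851 windows of all genes. Their observed over expected CG content had a median of 0.60 against 0.38, and their GC content a median of 58.0% against 52.7%. The 4 windows below are shown because their genes stand for the contrast described next. The first pair is in the Hoxa cluster, bright on the fetal arrays. The second pair lies next to each other in the Hoxd cluster, with the brightest fetal and neonatal signals in testis. Both early testes lay above both early ovaries for 3 of 33 Hox genes, near the 10.7% of all genes with that order. The windows are written 5′ to 3′ on the gene's strand, with every CG in capitals. The Hoxa5 window lies on the minus strand at chr6:52204538-52204837, that of Hoxa9 on the minus strand at chr6:52227321-52227620, that of Hoxd8 on the plus strand at chr2:74704365-74704664 and that of Hoxd9 on the plus strand at chr2:74697513-74697812.

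Hoxa5: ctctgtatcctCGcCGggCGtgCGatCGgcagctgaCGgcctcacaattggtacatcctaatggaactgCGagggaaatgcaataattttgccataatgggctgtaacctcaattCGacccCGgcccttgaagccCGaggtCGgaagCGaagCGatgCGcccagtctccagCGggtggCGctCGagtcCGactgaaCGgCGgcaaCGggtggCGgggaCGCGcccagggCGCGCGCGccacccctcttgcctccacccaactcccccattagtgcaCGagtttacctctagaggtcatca

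Hoxa9: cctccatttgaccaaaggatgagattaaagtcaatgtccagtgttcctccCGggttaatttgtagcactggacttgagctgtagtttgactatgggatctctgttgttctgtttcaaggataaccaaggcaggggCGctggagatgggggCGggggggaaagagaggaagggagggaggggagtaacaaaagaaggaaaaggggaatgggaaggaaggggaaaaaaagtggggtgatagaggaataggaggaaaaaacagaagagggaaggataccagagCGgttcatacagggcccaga

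Hoxd8: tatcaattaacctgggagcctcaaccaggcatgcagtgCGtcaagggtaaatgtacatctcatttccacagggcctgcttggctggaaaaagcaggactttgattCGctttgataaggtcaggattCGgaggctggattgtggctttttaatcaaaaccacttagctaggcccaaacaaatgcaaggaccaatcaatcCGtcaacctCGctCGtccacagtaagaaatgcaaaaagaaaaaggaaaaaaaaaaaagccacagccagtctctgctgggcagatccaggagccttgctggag

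Hoxd9: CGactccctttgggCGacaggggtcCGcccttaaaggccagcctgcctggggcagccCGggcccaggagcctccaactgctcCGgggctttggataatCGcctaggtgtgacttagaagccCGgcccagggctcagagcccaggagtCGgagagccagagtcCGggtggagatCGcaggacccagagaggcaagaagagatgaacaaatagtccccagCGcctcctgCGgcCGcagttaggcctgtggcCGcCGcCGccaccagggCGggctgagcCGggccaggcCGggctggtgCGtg

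The Hoxa5 window held 29 CG dinucleotides and the Hoxa9 window 4, while these genes were bright on the same arrays, as given below. The Hoxd8 window held 6 and the Hoxd9 window 20, so neither pair had a like CG content. The letters CCAAT, searched on both strands, were present in 12 of the 21 Hox windows (57.1%) and in 37.4% of all windows, and among the 4 shown they were in those of Hoxa5 and Hoxd8. The letters TATAAA were in 2 Hox windows (9.52%) and in 13.6% of all. The letters TGATTGAT, a form of the joint Pbx and Hox site, were in 2 Hox windows (9.52%) and in 0.746% of all. Motifs were counted separately, with any overlap allowed. A match describes the letters of the window only.

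Of the 33 Hox genes, 24 were above the floor on 1 array or more, and the signals of 19 of these 24 were highest on fetal ovary, fetal testis or neonatal ovary. Over all 15282 genes above the floor on 1 array or more, 39.3% were highest on these 3 arrays. This grouping of arrays follows neither age nor organ, and it matches the pattern of the Hox signals themselves. Its comparison with all genes therefore describes that pattern and is not separate evidence for it. Fetal ovary was the highest array for 10 Hox genes, where it was for 13.7% of all genes, neonatal ovary for 6 (16.1%), fetal testis for 3 (9.51%), neonatal testis for 2 (11.5%), adult testis for 2 (30.3%) and adult ovary for 1 (18.9%). By cluster the 3 arrays held the maximum of 7 of 8 Hoxa, 5 of 6 Hoxb, 5 of 6 Hoxc and 2 of 4 Hoxd genes.

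**Figure D1:**
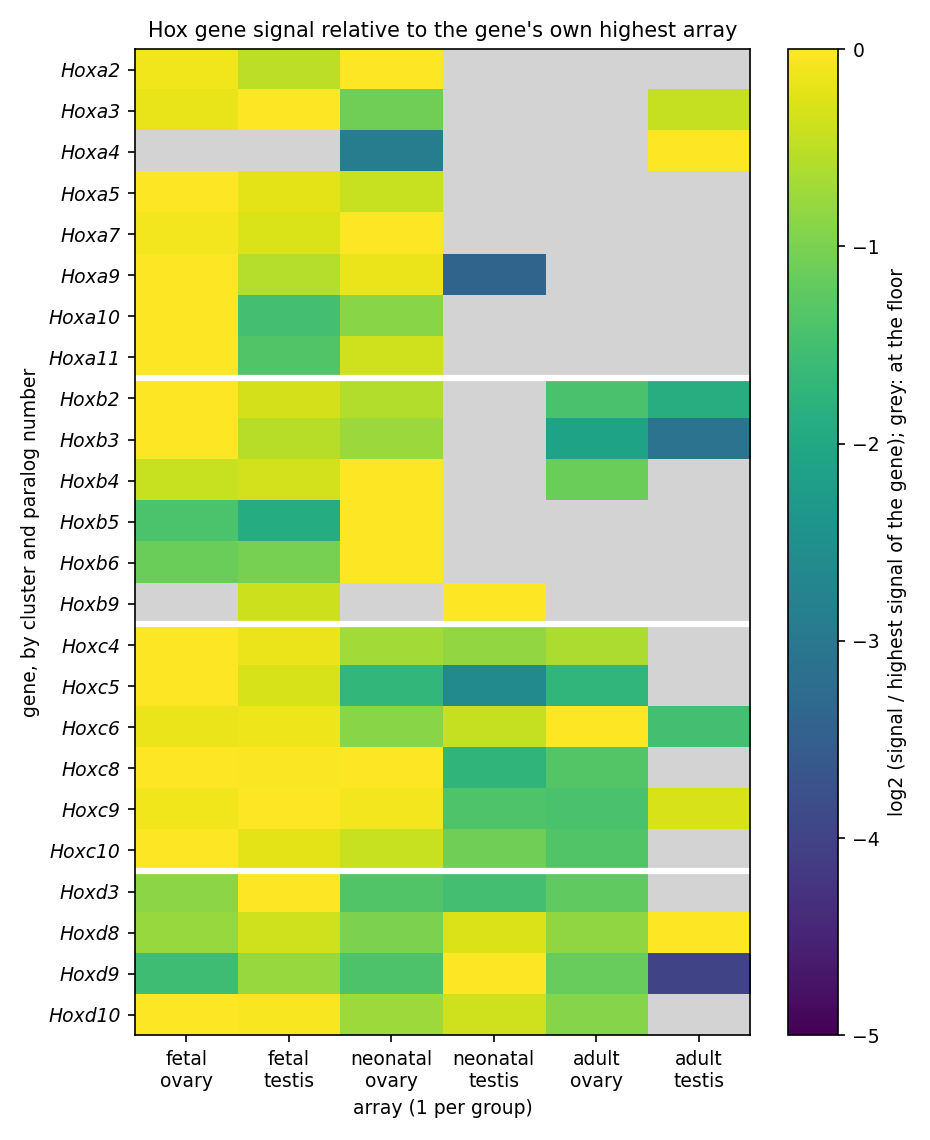
Log2 of each Hox gene's scaled signal divided by its own highest signal, for the 24 genes above the floor on 1 array or more (rows, by cluster and paralog number) on the 6 arrays (columns, 1 per group), with grey cells for signals at the floor. Hoxa genes other than Hoxa4, which is highest in adult testis, are bright on the left 3 arrays and mostly grey on the right 3, Hoxc genes are coloured on every array except adult testis for 4 of 6, and Hoxd8 and Hoxd9 are brightest in testis.

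A stricter count used the same grouping of arrays, so its comparison with all genes is likewise a description and not separate evidence. It asked for all of fetal ovary, fetal testis and neonatal ovary to lie above all of neonatal testis, adult ovary and adult testis. This held for 15 of 33 Hox genes against 9.12% of all genes, and it held for 13 to 17 Hox genes under every other setting except a floor at the 75th percentile, which left 4. The 15 were 6 of 9 Hoxa genes (Hoxa2, Hoxa5, Hoxa7, Hoxa9, Hoxa10 and Hoxa11), 5 of 9 Hoxb genes (Hoxb2 to Hoxb6), 4 of 7 Hoxc genes (Hoxc5, Hoxc8, Hoxc9 and Hoxc10) and 0 of 8 Hoxd genes. The share of all genes above the floor changed little between arrays, from 65.4% to 69.6%, while the number of Hox genes above it was 22 on fetal ovary, 23 on fetal testis, 23 on neonatal ovary, 12 on neonatal testis, 13 on adult ovary and 8 on adult testis. From fetal to neonatal testis, the number above the floor went from 7 to 1 for Hoxa and from 6 to 1 for Hoxb, but stayed at 6 for Hoxc and 4 for Hoxd. Fewer cells of a type and less RNA per cell cannot be told apart in whole gonads.

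Of the 33 Hox genes, 0 were called higher and 0 lower in fetal ovary than in fetal testis, where 0.192% of all genes were higher and 0.44% lower in ovary. In 14 Hox genes the ovary signal was the higher, in 9 the testis signal, and 10 lay at the floor on both arrays. The widest gaps toward ovary were those of Hoxa10 (2.82-fold higher) and Hoxa11 (2.57-fold higher), and those toward testis were Hoxd3 (1.83-fold lower in ovary) and Hoxd9 (1.73-fold lower in ovary). These 4 gaps were picked as the widest, and they exceed the technical SD of 0.16 on the log2 scale, as do narrower ones such as that of Hoxa9 (0.55). This SD covers no variation between animals.

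On postnatal day 1 the organs had parted. Neonatal ovary was called higher than neonatal testis for 7 of 33 Hox genes, where 1.4% of all genes were, and lower for 0, where 0.962% were. The 7 were Hoxa5, Hoxa9, Hoxa10 and Hoxa11 together with Hoxb3, Hoxb5 and Hoxb6. The median log2 ratio over all 33 was 0.57 against 0 over all genes, with 1.30 for Hoxa, 1.30 for Hoxb, 0.67 for Hoxc and 0 for Hoxd, and a median that includes genes at the floor is itself a bound. With a floor at the 75th percentile Hoxa9 alone remained past 4-fold here, and likewise from fetal to neonatal testis and from neonatal to adult ovary.

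Between fetal and neonatal ovary 0 Hox genes were called in either direction, where 0.759% of all genes were higher and 0.231% lower in the neonate. Between fetal and neonatal testis 4 of 33 were lower (Hoxa5, Hoxa9, Hoxb3 and Hoxc5) against 0.44% of all genes, and 0 were higher against 0.357%. Median log2 ratios in testis were -1.29 for Hoxa, -0.97 for Hoxb, -0.89 for Hoxc and 0 for Hoxd.

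The Hoxa and Hoxb genes of the ovary were low in the adult. Between neonatal and adult ovary 6 of 33 Hox genes were lower (Hoxa5, Hoxa9, Hoxa10, Hoxa11, Hoxb5 and Hoxb6) against 1.89% of all genes, and 0 were higher against 1.48%. The comparisons between ages share the neonatal arrays with that between the neonatal organs, so their values are given side by side and are not separate evidence. The fetal ovary array was also put in place of the neonatal one, a choice made after the data were seen. Then 6 Hox genes were higher in ovary than in neonatal testis (Hoxa5, Hoxa9, Hoxa10, Hoxa11, Hoxb3 and Hoxc5). In adult ovary 5 were lower (Hoxa5, Hoxa9, Hoxa10, Hoxa11 and Hoxb3), and 0 were called the other way. Hoxb5 and Hoxb6 were not called with this array. The share of all genes is not given for these comparisons, so the counts are not read as results.

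In adults the calls lay in Hoxc and Hoxd, with Hoxa4 apart. Adult ovary was higher than adult testis for 5 of 33 Hox genes (Hoxc4, Hoxc5, Hoxc8, Hoxd9 and Hoxd10) against 11.9% of all genes, and lower for 1, Hoxa4, against 10.9%. From neonatal to adult testis 4 were lower (Hoxc4, Hoxc8, Hoxd9 and Hoxd10) against 10.3% of all genes and 1 was higher, Hoxa4, against 10.7%. These shares are near the background or below it, so the counts are not results about the Hox genes. Scaled to the hybridization controls, adult ovary was higher for 3 (Hoxc4, Hoxc5 and Hoxc8) and lower for 3 (Hoxa3, Hoxa4 and Hoxc9), where 4.61% of all genes were higher and 18.2% lower, and adult testis was higher than neonatal testis for 3 and lower for 2, where 20.9% and 2.53% of all genes were.

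**Figure D2:**
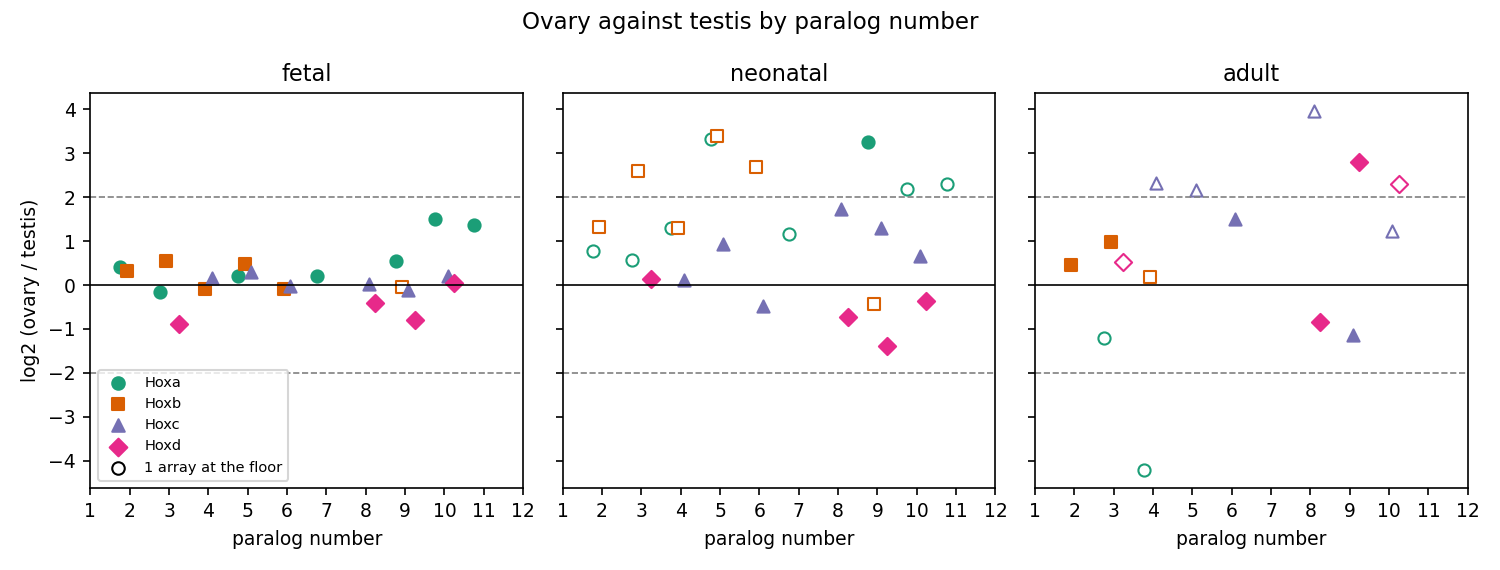
Log2 ratio of ovary over testis (vertical axis) against paralog number (horizontal axis) at 3 ages, 1 array per organ and age, for Hox genes above the floor on 1 or both arrays; open symbols are bounds with 1 array at the floor and dashed lines mark 4-fold. No gene passes a line in the fetus, 7 Hoxa and Hoxb genes pass the upper line in the neonate, and Hoxc and Hoxd genes pass it in the adult, where Hoxa4 lies lowest.

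In the Hoxa cluster, Hoxa5, a regulator of lung and skeletal patterning, had signals of 1011 in fetal ovary, 876 in fetal testis and 753 in neonatal ovary, and sat at the floor on the other 3 arrays. It was at least 10.0-fold higher in ovary than in testis of neonates and at least 11.6-fold lower in neonatal than in fetal testis. A second probe set of Hoxa5, of a kind that can cross-hybridize, kept the same split with 571, 491 and 413 on the bright arrays and 75.3 to 150.1 on the others. Its log2 ratios were 1.84 between the neonatal organs and -1.46 from neonatal to adult ovary, both under 4-fold. From fetal to neonatal testis it had -2.09, past 4-fold.

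Hoxa9, a gene of the oviduct and of blood progenitors, read 2102 in fetal ovary, 1432 in fetal testis, 1903 in neonatal ovary and 201 in neonatal testis, and sat at the floor in both adult organs. The 3 bright arrays lay well apart from neonatal testis, with a ratio of 9.47 between the neonatal organs, and the adult ovary was at least 25.3-fold lower than the neonatal ovary. Its second probe set ranged from 122 to 212, highest on the same 3 arrays and above the floor in both adult organs. On that probe set the log2 ratios were 0.80 between the neonatal organs and -0.50 from neonatal to adult ovary. From fetal to neonatal testis it had -0.74, so none of these calls was reached on it alone. With the mean of both probe sets Hoxa9 stayed called in these comparisons. The probe sets differed by 4.16 on the log2 scale in the widest comparison.

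Hoxa10 and Hoxa11 are needed for the uterus and for descent of the testis. Hoxa10 had 631 in fetal ovary, 224 in fetal testis and 342 in neonatal ovary and sat at the floor elsewhere. Hoxa11 had 475, 185 and 371 on the same arrays and sat at the floor elsewhere. Fetal testis was the dimmest of the 3 bright arrays for both genes. The neonatal ovary signals were at least 4.54-fold higher and at least 4.93-fold higher than in neonatal testis. The other Hoxa10 probe set was at the floor on every array, and with the mean of its probe sets the log2 ratio of Hoxa10 came to 1.19, under the limit of 4-fold. With the signals as deposited the log2 ratios of Hoxa10 and Hoxa11 were 1.86 and 1.98, also under it.

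Hoxa2, a hindbrain gene, and Hoxa7, a trunk gene, were above the floor on these 3 arrays at low signal. Hoxa2 read 121, 91.6 and 129 in fetal ovary, fetal testis and neonatal ovary. Hoxa7 read 158, 137 and 167. Both sat at the floor on the remaining 3 arrays, and their ratios were bounds under 4-fold.

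Hoxa4, a gene known to be active in male germ cells, stood apart from its neighbours. It had 1388 in adult testis and 185 in neonatal ovary, and sat at the floor on the other 4 arrays. Adult testis was at least 18.4-fold higher than neonatal testis and adult ovary at least 18.4-fold lower than adult testis. The second Hoxa4 probe set read 164 in adult testis and sat at the floor on the other 5 arrays, so it was highest on the same array at a smaller ratio. Hoxa3, a gene of the pharyngeal region, was the other Hoxa gene above the floor in adult testis. Its signals were 211 in fetal ovary, 237 in fetal testis, 112 in neonatal ovary and 174 in adult testis, with neonatal testis and adult ovary at the floor. The 8 spermatocyte markers were all called higher in adult than in neonatal testis too, against 10.7% of all genes. The part of spermatocytes in the Hoxa4 ratio was not tested.

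**Figure D3:**
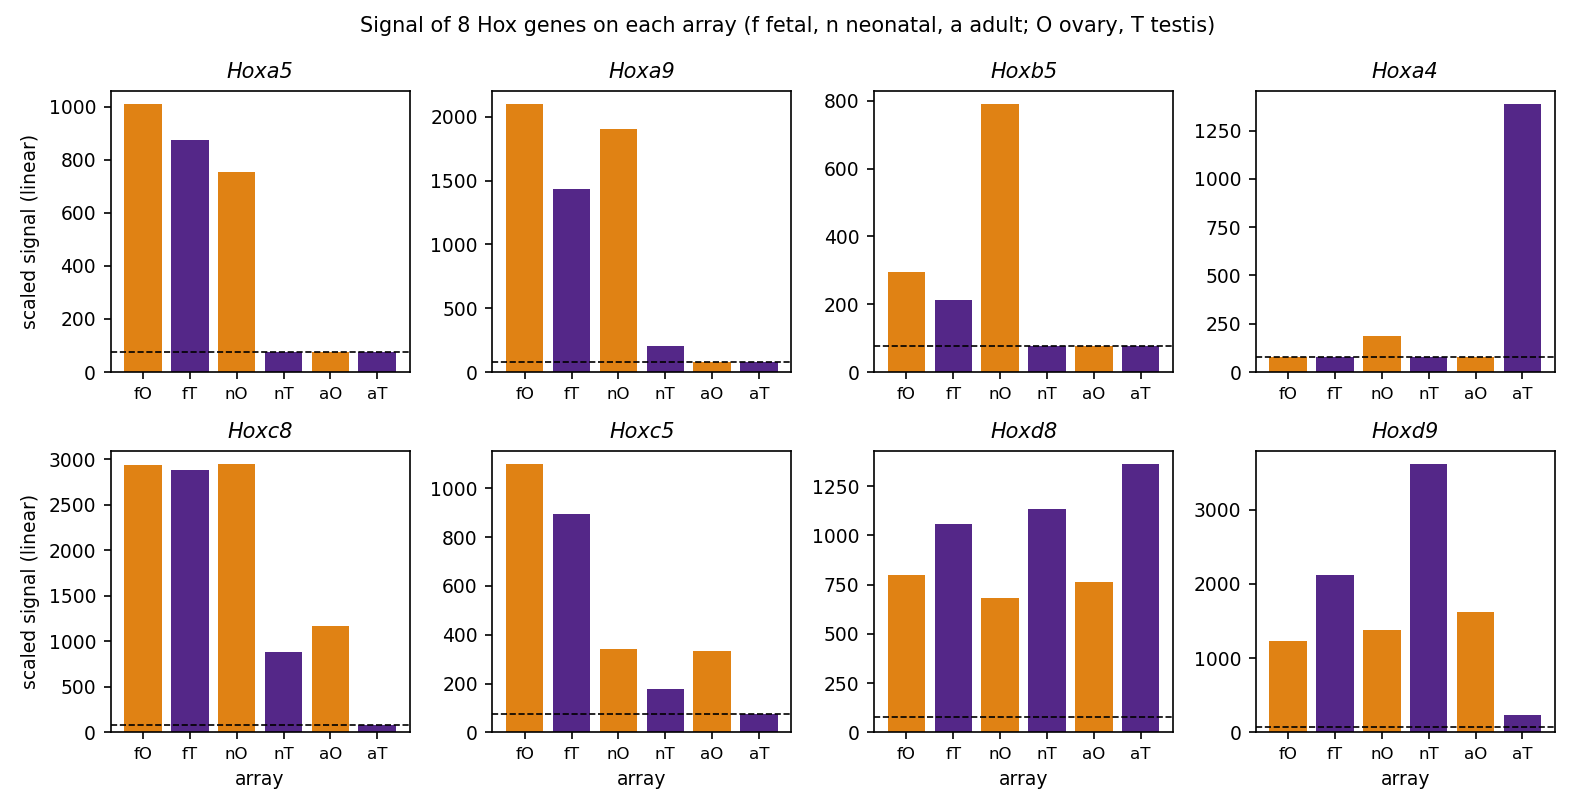
Scaled signal (vertical axis, linear, starting at 0) of 8 Hox genes on the 6 arrays (horizontal axis, bars, 1 array each; orange for ovary and purple for testis), with the floor of 75.3 as a dashed line. Hoxa5, Hoxa9 and Hoxb5 stand above the floor on the left 3 bars, Hoxa4 is tallest in adult testis, Hoxc8 and Hoxc5 lack only adult testis, and Hoxd8 and Hoxd9 are taller in fetal and neonatal testis than in the ovary of the same age.

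In the Hoxb cluster, Hoxb3, which acts in the hindbrain and pharynx, had 763 in fetal ovary, 523 in fetal testis, 453 in neonatal ovary, 177 in adult ovary and 89.4 in adult testis, with neonatal testis at the floor. It was at least 6.01-fold higher in ovary than in testis of neonates. Neonatal testis was the lowest array and adult testis lay near the floor. The second Hoxb3 probe set was above the floor only in fetal ovary (89.0), and with the mean of both the log2 ratio between the neonatal organs was 1.60, under 4-fold.

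Hoxb5 and Hoxb6, which pattern the trunk and shoulder, were brightest in neonatal ovary. Hoxb5 had 296 in fetal ovary, 212 in fetal testis and 791 in neonatal ovary. Hoxb6 had 224, 240.0 and 487. Both sat at the floor on the other 3 arrays. From fetus to neonate the ovary signals were 2.67-fold higher and 2.17-fold higher, while those of testis were at least 2.81-fold lower and at least 3.19-fold lower.

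Hoxb2 and Hoxb4, a hindbrain gene and a gene of the neck and of blood stem cells, had their 3 early arrays above the others with smaller steps. Hoxb2 read 281, 225 and 189 on the 3 early arrays, 103 in adult ovary and 75.6 in adult testis, with neonatal testis at the floor. Hoxb4 read 139, 148 and 186, with 85.5 in adult ovary and both neonatal and adult testis at the floor. Hoxb9, a gene of the rib cage, was above the floor only in fetal testis (77.7) and neonatal testis (102), close to it on both.

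In the Hoxc cluster 6 of 7 genes were above the floor on every array but adult testis, where 2 were. Hoxc8, a gene of the thoracic and brachial region, had 2931 in fetal ovary, 2879 in fetal testis, 2943 in neonatal ovary, 887 in neonatal testis and 1162 in adult ovary, with adult testis at the floor. The 3 early arrays were nearly equal and stood above the others. Adult ovary was at least 15.4-fold higher than adult testis, and neonatal testis 3.25-fold lower than fetal testis, short of the limit. Adult testis was at least 11.8-fold lower than neonatal testis.

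Hoxc5, a gene of the neck, had 1099 and 893 in fetal ovary and testis, 342 in neonatal ovary, 178 in neonatal testis and 335 in adult ovary, with adult testis at the floor. Both fetal arrays lay above the rest, neonatal testis was 5.02-fold lower than fetal testis, and adult ovary at least 4.45-fold higher than adult testis. One further Hoxc5 probe set read 176, 144 and 120.3 on the 3 early arrays and the other 78.2 in fetal ovary only, with all else at the floor. The mean of the 3 probe sets gave a log2 ratio of 0.74 between adult ovary and testis, under 4-fold.

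Hoxc4, the cluster's most anterior gene, had 572 and 515 in fetal ovary and testis, 353 and 326 in neonatal ovary and testis and 374 in adult ovary, with adult testis at the floor. Hoxc10, a gene of the lumbar region, had 447, 389.8, 335, 211 and 176 in the same order, with adult testis at the floor. The neonatal organs were close for Hoxc4 (1.08-fold higher in ovary) and further apart for Hoxc10 (1.59-fold higher). In the adult, Hoxc4 was at least 4.97-fold higher in ovary than in testis, and adult testis was at least 4.34-fold lower than neonatal testis, or -1.65 on the log2 scale with the hybridization controls.

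Hoxc6 and Hoxc9, both genes of the thoracic region, were above the floor on all 6 arrays. Hoxc6 had 228, 232, 136, 188, 253 and 89.6 in fetal ovary, fetal testis, neonatal ovary, neonatal testis, adult ovary and adult testis. Adult ovary was the highest array of Hoxc6 and adult testis the lowest. Hoxc9 had 282, 303, 287, 118, 112 and 247, with neonatal testis and adult ovary lowest.

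In the Hoxd cluster the 3 early arrays did not stand above the rest for any gene. Hoxd9, a gene of the limb and lower trunk, had 1226 in fetal ovary, 2119.5 in fetal testis, 1374 in neonatal ovary, 3612 in neonatal testis, 1617 in adult ovary and 231 in adult testis. Its highest and lowest arrays were thus testes of different age. Adult testis was 15.6-fold lower than neonatal testis, and adult ovary 7.0-fold higher than adult testis, or 1.78 on the log2 scale when scaled to the hybridization controls.

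Hoxd8, its neighbour, had 797, 1057, 684, 1136, 763 and 1360.5 in the order fetal ovary, fetal testis, neonatal ovary, neonatal testis, adult ovary and adult testis. Each testis lay above the ovary of its age, by 1.33-fold, 1.66-fold and 1.78-fold. The second Hoxd8 probe set had the same order at each age, with 1219 against 665, 894 against 516 and 784 against 728.

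Both fetal and neonatal testis lay above both fetal and neonatal ovary for 3 of 33 Hox genes, Hoxb9, Hoxd8 and Hoxd9, which is near the 10.7% of all genes with that order. Hoxd8 and Hoxd9 had it under every setting tried. Hoxd10, a lumbar and limb gene, had 699 and 679.7 in the fetal organs, 422 and 547 in the neonatal ovary and testis and 372 in adult ovary, and sat at the floor in adult testis. Hoxd3, a gene of the neck, had 253 in fetal testis and 138 in fetal ovary, 98.9, 90.5 and 109 in neonatal ovary, neonatal testis and adult ovary, and sat at the floor in adult testis. For these 2 genes adult testis was the only array at the floor. Hoxd10 was at least 4.94-fold higher in ovary than in testis of adults and at least 7.26-fold lower in adult than in neonatal testis, and with the hybridization controls the log2 ratios were 1.74 and -1.94, under 4-fold.

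The 9 genes at the floor on every array were Hoxa13, Hoxb1, Hoxb7, Hoxb13, Hoxc13, Hoxd1, Hoxd11, Hoxd12 and Hoxd13. Over all genes, 15282 of 18193 were above the floor on 1 array or more, so a floor signal throughout is not particular to Hox genes. Of 14 posterior genes 6 were at the floor throughout, against 2 of 7 anterior and 1 of 12 central genes, counts too small to compare positions. All 4 measured genes with number 13, some of which pattern the digits, cervix, vagina and prostate, were among the 9 at the floor. A signal at the floor shows only that the probe set was not brighter than the median of the arrays.

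By cluster, 4 of 9 Hoxa, 3 of 9 Hoxb, 0 of 7 Hoxc and 0 of 8 Hoxd genes were called higher in ovary than in testis of neonates. Of all genes 1.4% were, so the counts of 0 for Hoxc and Hoxd are near the background. By position, 1 of 7 anterior, 3 of 12 central and 3 of 14 posterior genes were called higher in the same comparison, with median log2 ratios of 0.57, 1.23 and 0. Relatives with the same paralog number could differ. Among the genes with number 9, Hoxa9 was 9.47-fold higher in ovary than in testis of neonates, Hoxc9 2.44-fold higher, Hoxb9 at least 1.35-fold lower and Hoxd9 2.63-fold lower. Among those with number 5, Hoxa5 and Hoxb5 were called higher in that comparison and Hoxc5 was 1.92-fold higher. Number 10 held Hoxa10, called higher, with Hoxc10 and Hoxd10 at 1.59-fold higher and 1.30-fold lower.

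Profiles over the 6 arrays were compared within and between clusters. Pearson's r of log2 signals, given as a description over 6 arrays that share scaling and cell makeup, had a median of 0.79 over 64 pairs of the same cluster, 0.57 over 21 pairs of the same paralog number and 0.58 over 191 other pairs. Within clusters the medians were 0.89 for Hoxa, 0.83 for Hoxb, 0.77 for Hoxc and 0.14 for Hoxd. Without adult testis the 3 medians were 0.78, 0.58 and 0.56, and that of Hoxd was 0.43. With the floor at the 25th percentile, which brings in 30 genes, the order did not hold, with medians of 0.53 within clusters, 0.57 within paralog numbers and 0.54 elsewhere.

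The partners of Hox proteins were measured in part, 8 of 9 on the list. Meis1 and Meis2, which bind DNA beside Hox proteins, had the order of the Hoxa genes. Meis1 read 2266, 1552 and 1532 on the 3 early arrays, 546 in neonatal testis and 311 in adult ovary, with adult testis at the floor. Meis2 read 3549.8, 2496 and 2153, then 515 and 424, with adult testis at the floor. Meis2 was the only cofactor called between neonatal ovary and testis (4.18-fold higher) and between neonatal and fetal testis (4.85-fold lower). The shares of all genes called in these directions were 1.4% and 0.44%. Of the 8 cofactors 2 were lower in adult than in neonatal ovary (1.89% of all genes), and 1 was higher (10.7%) and 4 lower (10.3%) in adult than in neonatal testis. Between the adult organs 3 were higher in ovary (11.9% of all genes) and 1 was lower (10.9%).

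Pbx genes encode the other partner of the complex. Pbx2 read 695 in neonatal ovary and 999 in neonatal testis, and Pbx3 1203 and 1321, so testis was the higher organ for both. Pbx4, a testis member, was at the floor on 5 arrays and read 335 in adult testis. Pknox2, a relative of Meis, had its highest signal in adult testis (1646) and its lowest in neonatal ovary (425). Pknox1 and Meis3 were above the floor on all 6 arrays.

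Genes that maintain Hox states were read from 2 lists. None of 14 Polycomb genes was called in the 6 comparisons other than adult ovary against adult testis, where Phc1, a subunit of the complex that compacts clusters, was 5.74-fold lower. Ezh2, the methyltransferase of the silencing mark, read 1449.8 in neonatal ovary and 1954 in neonatal testis. None of 9 trithorax and Cdx genes was called in any of the 7 comparisons, and Cdx1 and Cdx4, which activate central Hox genes in the embryo, were at the floor throughout. With at most 1.89% of all genes called in either direction in the comparisons without adult testis, counts of 0 on lists of this size are near the background. In the comparisons with adult testis between 10.3% and 11.9% of all genes were called in each direction.

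Of 10 genes of retinoid control, 2 were called higher and 1 lower in ovary than in testis of neonates, against 1.4% and 0.962% of all genes. Crabp1, which binds retinoic acid in the cytoplasm, had 1681, 655 and 1385 on the 3 early arrays and 198 in neonatal testis, with both adult organs at the floor. Aldh1a2, a retinoic acid synthase, was 4.06-fold higher, and Cyp26b1, which degrades retinoic acid, at least 7.79-fold lower. Rarb, a receptor and itself a retinoic acid target, had 366, 262 and 241 on the early arrays and sat at the floor on the others. In the other comparisons 2 of the 10 were lower in neonatal than in fetal testis (0.44% of all genes) and 1 was lower in adult than in neonatal ovary (1.89%). Between the adult organs 1 was higher in ovary, near the 11.9% of all genes.

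Genes that flank the clusters were read for comparison, among them Evx1 and Evx2, homeobox genes of a related family. Of 9 flanking genes, 0 had all 3 early arrays above the others, against 9.12% of all genes, which is near the background for a list of this size. Skap2, next to Hoxa, read 1224 in neonatal ovary and 752 in neonatal testis, and Mtx2, next to Hoxd, 1266 and 1420.2. The 1 flanking gene called was Ttll6, beside Hoxb, with 1322 in adult testis. It was at least 17.6-fold higher there than in neonatal testis, a direction in which 10.7% of all genes were called.

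Homeobox genes outside the clusters had a mixed pattern. Of 18 measured, 5 were called higher in ovary than in testis of neonates (Emx2, Irx3, Lhx8, Msx1 and Nobox) and 1 lower (Lhx9). Of all genes 1.4% were higher and 0.962% lower. Lhx8 and Nobox, regulators of the oocyte, were at the floor on both fetal arrays and read 1254 and 1556 in neonatal ovary, which was their highest array. The 3 early arrays lay above the others for 4 of the 18, Emx2, Six4, Msx1 and Meox2, against 9.12% of all genes.

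Of 9 noncoding RNAs of the clusters 3 were measured, named here by the symbols of the platform. Hoxd3os1 was at the floor on 5 arrays and read 1640.0 in adult testis, while Hoxd3 was at the floor there. Hoxb5os read 326, 283 and 324 on the 3 early arrays, 78.9 in neonatal testis, 198 in adult ovary and 863 in adult testis, where Hoxb5 was at the floor. Hoxa11os was above the floor in fetal ovary alone (141).

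Markers of the ducts that lie beside the gonad differed between the neonatal organs in the direction of the called Hoxa and Hoxb genes. Of 18 markers of duct and oviduct epithelium 16 were measured. In ovary against testis of neonates 12 were called higher and 0 lower, against 1.4% and 0.962% of all genes. Of the 16, 3 were higher in neonatal than in fetal ovary (Cldn3, Muc1 and Ovgp1) against 0.759% of all genes. In adult against neonatal ovary 11 were lower against 1.89%, and in neonatal against fetal testis 4 were lower against 0.44%. Between the fetal organs 0 were called, where 0.192% of all genes were higher and 0.44% lower in ovary. Their summed signal above the floor was 10943 in fetal ovary, 8691 in fetal testis, 22474 in neonatal ovary, 2444 in neonatal testis, 3727 in adult ovary and 2178 in adult testis. The 3 early arrays lay above the other 3 for 9 of the 16, against 9.12% of all genes. The summed signal of all Hox genes was 14831 in fetal and 13043 in neonatal ovary. On these arrays the Hoxa genes summed to 4709 and 3963 and the Hoxb genes to 1703 and 2105. Sums add signals of different probes and are carried by the brightest genes, and how the Hox and duct sums relate was not tested.

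Several of these genes are known for the duct lining, while Krt8, Krt18 and Emx2 are also made by epithelium of the gonad itself. Cdh16, a cadherin of duct epithelium, read 898, 583 and 1179.6 on the early arrays and sat at the floor on the others. Pax8, a duct transcription factor, read 265, 198, 437 and 100.1 on the fetal and neonatal arrays and sat at the floor in both adult organs. Krt19, a keratin of ducts, read 1599.8, 946, 3556, 190.3 and 488 and sat at the floor in adult testis. Ovgp1, the oviduct glycoprotein, had 1961 in neonatal ovary and sat at the floor in fetal ovary. Emx2 and Lhx1 of this list are also on that of other homeobox genes, and Wnt7a is on that of the uterus. The part of duct tissue in the Hox signals was not tested.

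**Figure D4:**
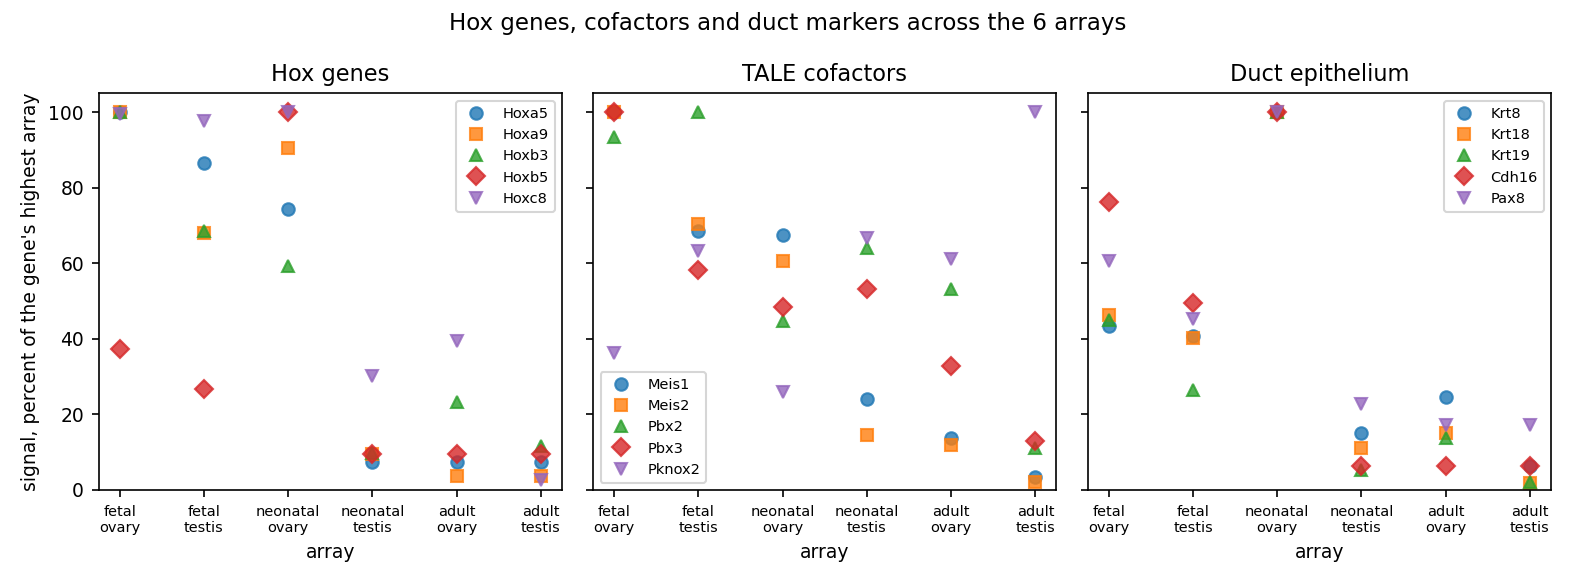
Signal as a percentage of the gene's own highest array (vertical axis, linear) on the 6 arrays (horizontal axis, 1 point per gene and array) for 5 Hox genes, 5 TALE cofactors (the Pbx, Meis and Pknox family) and 5 markers of duct epithelium, with signals at the floor drawn at the floor. The Hox genes and duct markers drawn are all from those higher on the left 3 arrays than on the right 3, an order that 15 of 33 Hox genes and 9 of 16 duct markers had. The duct markers drawn peak in neonatal ovary, while Emx2, Gata3, Lhx1, Muc1, Wnt7a and Wnt9b of that list peak on other arrays. Pknox2 is highest in adult testis.

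Markers of other tissues were summed in the same way. The 16 markers of duct and stromal mesenchyme summed to between 58025 and 60185 on the 4 fetal and neonatal arrays, 39510 in adult ovary and 8537 in adult testis. Between neonatal ovary and testis 0 were called higher and 2 lower, against 1.4% and 0.962% of all genes. The list was low in adult testis, where 13 of 16 were called lower than in neonatal testis, against 10.3% of all genes. The 3 early arrays lay above the other 3 for 4 of the 16 (Pdgfrb, Nr2f1, Col1a1 and Lum), against 9.12% of all genes. The 12 markers of uterus and reproductive tract summed to 6393, 5973, 4236, 2687, 4424 and 383 from fetal ovary to adult testis, and Foxa2, Sprr2f and Isl1, markers of the uterine lining and of the outer genitalia, were at the floor on all arrays. Of the 12 uterine markers 2 were called higher and 0 lower in ovary than in testis of neonates, against 1.4% and 0.962% of all genes. The 3 early arrays lay above the others for 2 of them (Msx1 and Ltf), near the 9.12% of all genes. The 9 markers of adrenal cortex and kidney summed to between 186 and 771, with Umod, Slc12a1 and Nphs1 at the floor on every array. The 7 smooth muscle markers held 3 called higher in neonatal than in fetal ovary, against 0.759% of all genes, and 0 called between the neonatal organs. Of 9 granulosa markers 3 were higher and 3 lower in ovary than in testis of neonates, and 0 of 9 housekeeping genes were called there. The part of these tissues in the Hox results was not tested. In adult testis the 10 spermatid markers summed to 80706, against at most 119 on the other arrays.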

How the data were processed

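The deposited table holds 1 intensity per probe set and array for 45101 probe sets on 6 arrays, unlogged. The submitters' processing notes name GCOS version 1 but not what it did. Background correction, probe summary and scaling were not given in the sources used here, so how much of a dim signal is background stays unknown. Gene symbols came from the platform annotation, and probe sets with several symbols or none were left out. The remaining 34945 probe sets gave 18193 genes, each read by whichever of its probe sets was brightest on average. The GRCm38.p6 gene table holds all 33 Hox symbols.

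Each array was multiplied by 1 factor, between 0.913 and 1.26, to a common 2% trimmed mean, floored at 75.3, and compared as ratios with a limit of 4. The 7 comparisons were ovary against testis at 3 ages and neighbouring ages within each organ. No test was run, because each group has 1 array. The steps were tested on simulated data. The rule for naming was every Hox gene at least once, all 6 arrays for those called or with probe sets that disagree by over 4-fold, and other genes only from 18 lists of 194 genes, of which 172 were measured. The Hox genes and these lists were chosen with earlier results of these data known. The 9 alternatives were other scalings, other floors and other choices of probe sets. The technical SD is a robust SD of log2 ratio differences between probe sets of a gene, divided by the square root of 2. Python 3.11.15, numpy 2.4.6, pandas 2.3.3 and matplotlib 3.10.9 were used.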

Additional observations from a re-analysis of the deposited data

Results flagged for a closer look

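Some Hox genes had ratios that pointed in opposite directions by 2-fold or more under the same contrast at different ages or in different organs. These differences were not tested, because each group has 1 array.

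For ovary against testis, the log2 ratios of Hoxa4 were 0 in the fetus, where both arrays lay at the floor, 1.30 in the neonate and -4.20 in the adult, the last 2 being bounds. Those of Hoxc9 were -0.11, 1.29 and -1.14. Those of Hoxd9 were -0.79, -1.39 and 2.81, the opposite turn.

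For adult against neonatal samples, Hoxa4 had -1.30 in ovary and 4.20 in testis, both bounds, and Hoxc9 had -1.36 in ovary and 1.07 in testis. For neonatal against fetal samples, Hoxb5 had 1.42 in ovary and -1.49 in testis, and Hoxb6 had 1.12 and -1.67, where the testis values are bounds.

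Probe sets that name 2 genes were outside the comparisons. A probe set shared by Hoxd4 and Hoxd3 read 152 in fetal ovary, 349 in fetal testis and 118 in adult ovary, and another shared by the same genes 139, 113 and 142 on these arrays, with both at the floor on the other 3. A probe set shared by Hoxb8 and Hoxb7 was at the floor on all 6 arrays.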

How the results depend on the processing

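None of the 28 ratios of called Hox genes reversed under the 9 other settings, but with a floor at the 75th percentile 4 of them had both arrays at the floor and no direction left. Of 252 such values 218 stayed at 4-fold or more and 34 did not. No paired analysis was possible because each group has 1 array and the replicate numbers are all 1.

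The signals as deposited gave 1 Hox gene (Hoxc5) lower in neonatal than in fetal ovary. Scaling to the hybridization controls gave 3 higher and 3 lower in ovary than in testis of adults, and 3 higher and 2 lower in adult than in neonatal testis. With this scaling, 20.2% of all called genes were higher in the adult ovary than in the adult testis, against 52.2% with the trimmed mean, and 89.2% against 50.8% were higher in adult than in neonatal testis. For neonatal ovary against neonatal testis the share was 78.5% against 59.2%, and 46.4% as deposited.

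A floor at the 25th percentile gave 10 Hox genes lower in neonatal than in fetal testis, and no floor with 16 added gave 8. A floor at the 75th percentile left 1 gene in each of 5 counts. These were Hoxa9, higher in ovary than in testis of neonates and lower in adult ovary and in neonatal testis than at the age before, and Hoxd9, higher in ovary than in testis of adults and lower in adult than in neonatal testis. It also left 12 genes highest on a fetal array or neonatal ovary. The median correlation within clusters, examined under other settings only after the data were seen, was 0.53 and 0.58 at these floors. Most calls are bounds, so a lower floor enlarges them and a higher one removes them.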
